A study of Mus musculus with 8 samples.

Results

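The genes described here are 9 organic anion and drug transporters of the mouse liver, chosen by name: Slco1a1, Slco1a4, Slco1b2, Slco2a1, Slco2b1, Slc22a7, Abcc2, Abcc3 and Abcb1a. Every probe that the platform annotation assigns to one of these symbols was taken, which gave 12 of the 25697 probes on the array, with at least 1 probe for each gene. Of the 9 genes, 7 were bright enough to be tested among 8134 genes, and Slco1a1 and Abcb1a were not.

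The study deleted Snd1, which encodes an RNA-binding protein with roles in transcription, splicing and microRNA decay, and compared gene expression in liver with and without it. Total RNA from the left liver lobe of males, 4 of them wild type (WT) and 4 homozygous for the Snd1 deletion (KO), was hybridised to Illumina MouseRef-8 v2.0 bead arrays, 1 array per liver. All 8 mice were C57BL/6N and 8-12 weeks old, were not fasted, and were sampled around noon. The samples of each genotype were biological replicates according to the study's methods. The KO allele lacks the first Snd1 exon. It was made in R1 embryonic stem cells, was deleted by a Cre transgene under the broadly active CAG promoter, and was backcrossed to C57BL/6N. Every cell of the KO mouse therefore lacks the exon, so the comparison does not isolate hepatocytes.

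Organic anion transporting polypeptides (OATPs, the Slco genes) and organic anion transporters (OATs, in the Slc22 family) carry bile acids, conjugated hormones, thyroid hormone, prostaglandins and many drugs across the plasma membrane, in liver mostly from blood into the hepatocyte. ATP-driven pumps of the ABC family then move the substrates and their conjugates out again, either across the canalicular membrane into bile or back across the basolateral membrane into blood. Several of these genes are known in rodents to respond to sex hormones, growth hormone and the xenobiotic receptors CAR and PXR.

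Probe intensities were background-corrected, quantile-normalized and put on a log2 scale, and all levels below are normalized log2 intensities listed in the order of replicates 1 to 4. A probe was counted as detected on an array when its deposited detection p-value was under 0.05, and a gene was tested when its brightest probe was detected on at least 4 of the 8 arrays. Differences are KO minus WT from limma, with p-values adjusted by the Benjamini-Hochberg method over all 8134 genes, and a gene was called when its adjusted p was under 0.05. Intensities of different probes are not comparable with each other, so levels are compared only between arrays. In whole liver, fewer cells of a type and less RNA per cell cannot be told apart.

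Snd1 itself read 6.81 ± 0.0507 (SD, n = 4) on the WT arrays and 4.20 ± 0.038 (SD, n = 4) on the KO arrays, where its probe was not well above background. Snd1 was at least 4.94-fold lower in KO (limma, adjusted p = 2.99e-07). The sources do not say whether this probe lies inside the deleted exon. The hepatocyte markers Ttr, Apoa1 and Asgr1 were bright on all 8 arrays, with log2 intensities of 13.81 to 13.98, 13.88 to 14.14 and 12.02 to 12.33. Other hepatocyte markers were not: the Alb probe read 4.45 to 4.95 and was detected on 7 arrays, and the Fgb and Tat probes on none. KO 1 and KO 4 were dimmer before normalization than the other arrays, with mean raw intensities of 215 and 223 against 262 to 290.

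Slc22a7 was the 1 transporter gene that passed the test, and it was lower in the KO livers. For comparison, 2.54% of all 8134 genes were called in either direction, 1.36% lower in KO and 1.18% higher. The other 6 genes tested did not pass, and 5 of the 7 estimates were above 0. The median difference over the 7 genes was 0.20 on the log2 scale, against -0.00137 over all genes tested. At an unadjusted p under 0.05 stood 3 of the 7 genes (Slc22a7, Slco1a4 and Slco1b2), beside 17.4% of all genes. When limma weighted the arrays by their estimated quality, Slco1a4 (0.92, adjusted p = 0.00216), Slco1b2 (-0.43, adjusted p = 0.0397) and Slco2a1 (0.38, adjusted p = 0.031) passed as well, but that fit called 2190 of the 8134 genes, against 207 without weights.

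**Figure D1:**
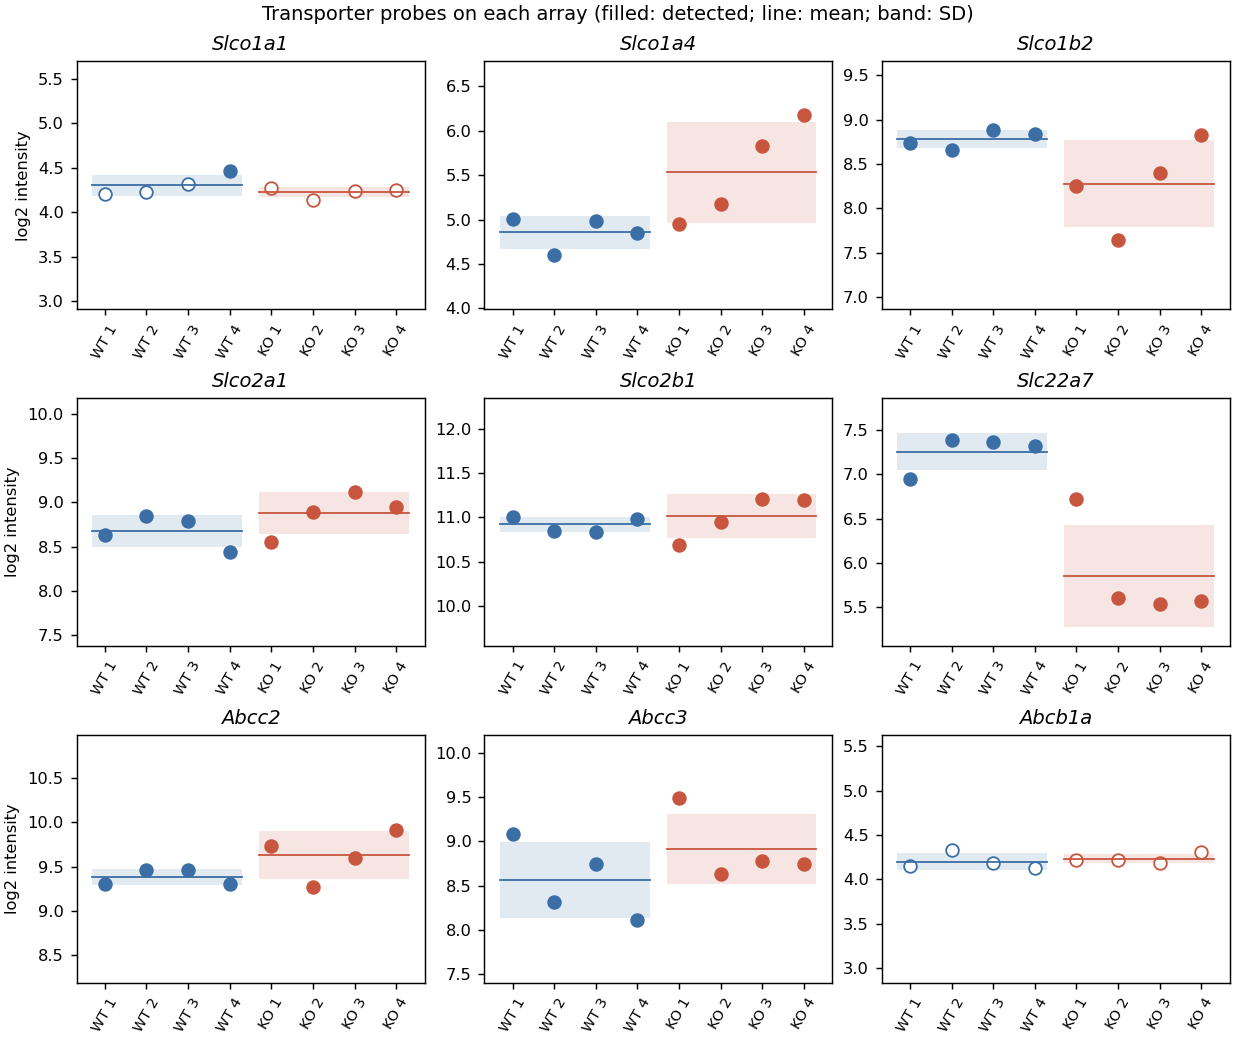
Normalized log2 intensity (vertical axis) of the brightest probe of each of the 9 transporter genes on the 4 WT and 4 KO arrays (horizontal axis), with filled points where the probe was detected, a line at the group mean and a band of 1 SD. The Slc22a7 points of the KO arrays all lie below those of the WT arrays, while the groups overlap for the other 6 genes tested, and Slco1a1 and Abcb1a are mostly open points near background.

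The OATP genes on chromosome 6 come first. Slco1a4 (Oatp1a4) takes up bile acids, steroid conjugates and digoxin, and in mouse liver is known to be higher in females and to be induced through CAR and PXR. Its probe read 5.01, 4.60, 4.98 and 4.85 in WT and 4.95, 5.18, 5.83 and 6.18 in KO, detected on all 8 arrays. KO 3 and KO 4 were the highest, KO 2 was just above the WT range and KO 1 lay inside it. The means were 4.86 ± 0.188 in WT and 5.53 ± 0.569 in KO (SD, n = 4 each), a difference of 0.68 on the log2 scale (SE 0.244, 95% confidence interval 0.14 to 1.22), or 1.60-fold. This difference did not pass the test over all genes (limma, adjusted p = 0.183), and an exact two-sided permutation test of the 8 values gave p = 0.0857. Without KO 1 it was 0.89 and passed (limma, adjusted p = 0.0428), and without any background correction it was 0.25. Leaving out any other single array gave no call, with limma adjusted p up to 0.401. A second Slco1a4 probe was detected on none of the arrays and read 4.11 to 4.23.

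Slco1b2 (Oatp1b2) is the hepatocyte-specific OATP of mouse liver, which takes up bilirubin, bile acids and statins. Its levels were 8.74, 8.66, 8.88 and 8.84 in WT and 8.25, 7.64, 8.40 and 8.83 in KO. The WT values lay close together, while 3 of the 4 KO values fell below all of them and KO 4 lay among them. The means were 8.78 ± 0.0991 and 8.28 ± 0.488 (SD, n = 4 each), and the SD in KO was 4.93 times that in WT. The difference of -0.50 (SE 0.209, 95% confidence interval -0.96 to -0.04), or 1.42-fold lower, did not pass (limma, adjusted p = 0.247; exact permutation p = 0.0857). Without KO 2 it was -0.29. Its second probe was not detected on any array.

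Slco1a1 (Oatp1a1), which transports bile acids and steroid sulfates and is known to be male-predominant in mouse liver, was not measurable here although all 8 mice were male. Its single probe read 4.20 to 4.47 in WT and 4.14 to 4.27 in KO and was detected on WT 4 alone, where the detection p-value was 0.0426. A dim probe does not give the level of its transcript on this platform. The probe for albumin read only 4.45 to 4.95 on these livers, and the probes for the hepatocyte genes Fgb and Tat were not detected on any array.

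Slco1b2, Slco1a4 and Slco1a1 are neighbours on chromosome 6, with 1 other protein-coding gene between the first pair and none between Slco1a4 and Slco1a1. Snd1 is on the same chromosome, with 966 protein-coding genes between it and the nearest of the 3. Slco1b2 and Slco1a4 are related genes close to each other. Their estimates had opposite signs, but neither passed the test, so opposite changes are not established. The promoter windows of these genes are shown as RefSeq gives them for GRCm38.p6. Each has 250 bases before and 50 bases after the start of transcription and is written 5′ to 3′ on the gene's own strand. The Slco1b2 window is chr6:141629268-141629567 on the + strand and the Slco1a4 window is chr6:141856171-141856470 on the - strand. Capitals mark matches, on either strand, to 3 motifs: TTCNNNGAA (read by STAT5), AGGTCA (the core read by many nuclear receptors) and GTTAAT (the core read by HNF1).
Slco1b2: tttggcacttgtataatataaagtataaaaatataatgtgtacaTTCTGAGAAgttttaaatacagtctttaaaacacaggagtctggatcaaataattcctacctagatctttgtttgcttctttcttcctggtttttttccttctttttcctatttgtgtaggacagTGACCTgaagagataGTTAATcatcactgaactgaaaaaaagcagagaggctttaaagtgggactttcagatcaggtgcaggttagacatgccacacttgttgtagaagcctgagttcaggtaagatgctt
Slco1a4: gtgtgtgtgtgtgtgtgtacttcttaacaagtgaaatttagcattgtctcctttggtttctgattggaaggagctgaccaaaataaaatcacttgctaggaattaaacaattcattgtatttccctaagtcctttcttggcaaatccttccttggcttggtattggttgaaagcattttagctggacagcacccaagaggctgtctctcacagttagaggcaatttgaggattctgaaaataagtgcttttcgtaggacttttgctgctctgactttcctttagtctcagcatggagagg
The Slco1b2 window held 1 match to each motif, at -206 for TTCNNNGAA, -81 for AGGTCA (on the opposite strand) and -66 for GTTAAT, counted from the start of transcription, and the matches do not overlap. The Slco1a4 window held none. Over all 32851 windows of this length, 8.3% held TTCNNNGAA, 16.3% held AGGTCA and 7.1% held GTTAAT. No window was given for Slc22a7 or Abcc3, so their promoters were not searched. The other 7 of the 9 genes had 9 windows in all. AGGTCA was found for 3 of these genes (Slco1a1, Slco1b2 and Abcc2), TTCNNNGAA for 2 (Slco1b2 and Slco2b1) and GTTAAT for Slco1b2. These matches are letters in a window, and none of the data measured binding to them. Their part in the levels of any of these genes was not tested.

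The remaining OATPs, Slco2a1 and Slco2b1, showed no difference past the test. Slco2a1, on chromosome 9, encodes the prostaglandin transporter. It read 8.63, 8.84, 8.79 and 8.43 in WT and 8.55, 8.89, 9.12 and 8.95 in KO, with KO 1 inside the WT range and the other KO arrays above it. The difference was 0.20 (SE 0.146, 95% confidence interval -0.12 to 0.53; limma, adjusted p = 0.509), and 0.12 to 0.31 when 1 array was left out. Among the 11 liver endothelial markers tested none was called, with 7 estimates above 0 and 4 below. The groups did not overlap for 1 of them, Stab2, which was lower in KO (-0.24), beside 10.8% of all genes. Their summed linear level was 3180 to 3320 in WT and 3300 to 3700 in KO, a sum in which the brightest probe, Clec4g, weighs most. The part of endothelial cells in the Slco2a1 values was not tested.

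Slco2b1 (Oatp2b1), on chromosome 7, carries steroid sulfates and several drugs. Its levels were 11.004, 10.85, 10.84 and 10.98 in WT and 10.69, 10.94, 11.21 and 11.20 in KO, so the KO values reached both below and above the WT values. The difference was 0.09 (SE 0.135, 95% confidence interval -0.21 to 0.39; limma, adjusted p = 0.778), and scaling the arrays to a common median in place of quantile normalization turned its sign (-0.08, adjusted p = 0.952). Leaving out 1 array gave 0.03 to 0.20.

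Slc22a7, on chromosome 17, encodes Oat2, a basolateral carrier of organic anions and of nucleobases and related small molecules. Its levels were 6.95, 7.39, 7.36 and 7.32 in WT and 6.72, 5.61, 5.53 and 5.57 in KO. Every KO value lay below every WT value, with a narrow gap between WT 1 and KO 1, the lowest WT and the highest KO array. The raw intensities had the same order of groups, at 205.8 to 238.6 in WT and 112.1 to 148.2 in KO, and the probe was detected on all 8 arrays. The means were 7.25 ± 0.207 and 5.86 ± 0.575 (SD, n = 4 each). The difference of -1.40 (SE 0.248, 95% confidence interval -1.95 to -0.85), or 2.63-fold lower, passed the test (limma, adjusted p = 0.0216). An exact two-sided permutation test gave p = 0.0286, the smallest that 4 against 4 samples allow. In KO 1 the level was 0.53 below the WT mean, and in the other 3 KO arrays it was on average 1.68 below it. Groups that did not overlap were found for this 1 gene of the 7, beside 10.8% of all genes, 5.38% with KO lower and 5.37% with KO higher. By size Slc22a7 ranked 38 among the most lowered of the 8134 genes.

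The Slc22a7 difference was below 0 under all 20 alternatives run, and 7 of them ended the call. Leaving out 1 array at a time, the difference ranged from -1.70 to -1.28. The call was lost without WT 2 (adjusted p = 0.0782), WT 3 (0.0827), WT 4 (0.0699), KO 2 (0.0536) or KO 3 (0.0828), and was kept without WT 1, KO 1 or KO 4, all by limma. It was also lost with no detection filter (adjusted p = 0.0713) and with the replicate number as a block (adjusted p = 0.0624). The labels do not say whether the numbers pair the samples. Without KO 1 the adjusted p was 0.000148. Without the dim arrays KO 1 and KO 4 the difference was -1.71 (limma, adjusted p = 0.000857). With no background correction, and with the intensities as normalized by the authors, it shrank to -0.77 (limma, adjusted p = 0.034 for both).

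**Figure D2:**
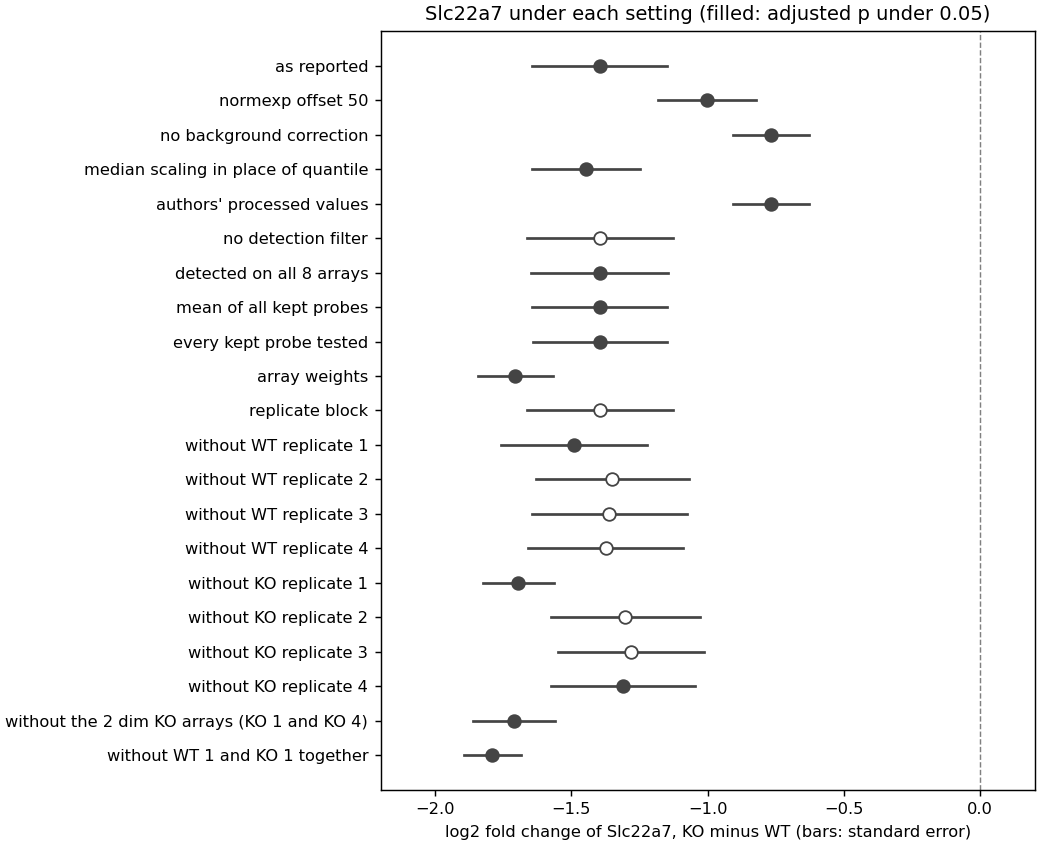
Slc22a7 log2 fold change, KO minus WT (horizontal axis, with its standard error as a bar), as reported and under each of the 20 alternatives (vertical axis), filled where the adjusted p was under 0.05. Every estimate is below 0, from -1.79 to -0.77, and 7 of the 20 alternatives are open points.

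Over the 8 arrays, the genes whose levels ran most like Slc22a7 among the 8133 other genes tested were Cyp2d40 (Pearson r = 0.992, Spearman rho = 0.881), Saa1 (r = 0.984, rho = 0.929) and Mup2 (r = 0.982, rho = 0.857). These are descriptions over 8 arrays that share the same genotype contrast, and 101 genes had r above 0.9. After subtraction of each group's mean the correlations were 0.978, 0.941 and 0.922. Cyp2d40, a cytochrome P450, read 9.46, 9.88, 9.70 and 9.83 in WT and 9.39, 8.18, 8.33 and 8.19 in KO. KO 1 was again the KO array nearest to WT, and WT 1 the lowest WT array. Saa1, an acute-phase protein of plasma, read 8.96, 9.91, 9.65 and 10.10 in WT and 8.46, 6.18, 4.76 and 5.08 in KO. Mup2, a major urinary protein, read 13.63, 13.69, 13.75 and 13.71 in WT and 13.46, 12.86, 12.90 and 13.07 in KO. In all 3 genes no KO value reached a WT value, beside 5.38% of all genes. All 3 were called lower in KO, beside 1.36% of all genes. Their differences were -1.19, -3.535 and -0.63 on the log2 scale (limma, adjusted p = 0.0357, 0.0264 and 0.0433). Because they were chosen for running like Slc22a7 on these arrays, the calls and the lack of overlap are largely built into their selection. Cyp2d40 and Saa1 kept the call without WT 1 or KO 1 and lost it without any of the other 6 arrays, and Mup2 kept it without KO 1 alone. Over these refits the limma adjusted p ran from 0.000333 to 0.119 for Cyp2d40, from 0.000214 to 0.0902 for Saa1 and from 0.00381 to 0.152 for Mup2. Saa1 and Mup2 belong to families of near-identical genes, so their probes may also read relatives.

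The export pumps showed no difference past the test. Abcc2 (Mrp2), on chromosome 19, is the canalicular pump for glucuronide and glutathione conjugates, bilirubin glucuronides among them. Its brighter probe read 9.31, 9.47, 9.46 and 9.31 in WT and 9.73, 9.27, 9.60 and 9.91 in KO, where 3 of 4 values were above the WT range and KO 2 was below it. The difference was 0.24 (SE 0.14, 95% confidence interval -0.07 to 0.55; limma, adjusted p = 0.407; exact permutation p = 0.171), and 0.15 without KO 4. The dimmer Abcc2 probe read 6.00, 6.08, 6.29 and 6.44 in WT and 5.97, 6.06, 6.29 and 6.56 in KO. On that probe the groups covered almost the same range, with a difference of 0.02 (SE 0.154; limma over all kept probes, adjusted p = 0.969).

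Abcc3 (Mrp3), on chromosome 11, is the basolateral pump that returns conjugates from the hepatocyte to blood, and is known to rise in cholestasis. Its levels were 9.08, 8.32, 8.74 and 8.12 in WT and 9.49, 8.63, 8.78 and 8.75 in KO. WT 1 and KO 1 were the highest array of their group, and the other 3 KO values all lay within the WT range. The difference was 0.35 (SE 0.238, 95% confidence interval -0.18 to 0.88; limma, adjusted p = 0.485; exact permutation p = 0.257). It was 0.16 without KO 1, 0.20 without WT 4 and 0.52 without WT 1.

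Abcb1a, on chromosome 5, encodes a P-glycoprotein (Mdr1a), an efflux pump for bulky hydrophobic drugs that is best known from the intestine and the blood-brain barrier. Its probe read 4.13 to 4.34 and was detected on none of the 8 arrays, so no difference could be tested.

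**Figure D3:**
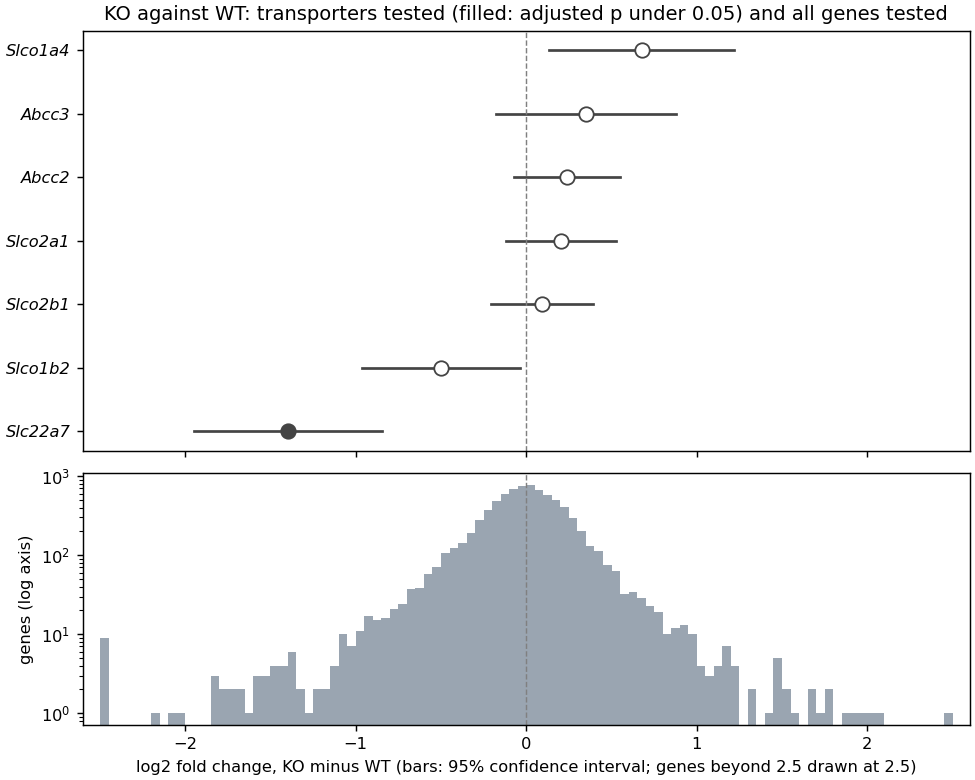
Upper panel, log2 fold change (KO minus WT, horizontal axis) of the 7 transporter genes tested, with 95% confidence intervals and a filled point where the adjusted p was under 0.05. Lower panel, the number of genes (log axis) at each log2 fold change over all 8134 genes. Slc22a7 at -1.40 is the 1 filled point, and the intervals of Slco2a1, Slco2b1, Abcc2 and Abcc3 include 0.

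The transporter genes varied more among KO than among WT livers in 6 of the 7 cases, Abcc3 being the exception. The ratio of the KO to the WT SD had a median of 2.88 over the 7 genes. Over all genes tested the median was 1.45 and 70.3% had the larger SD in KO, and the difference in spread was not tested. Some of the genes deviated together within groups. After subtraction of the group means, Slco1a4 correlated with Slco2b1 (r = 0.88) and with Slco1b2 (r = 0.741), and Slco1b2 with Abcc2 (r = 0.873), whereas Slc22a7 ran against Slco2b1 (r = -0.874) and Slco1a4 (r = -0.699). These are the strongest of all pairs among the 7 genes, picked by size, and are descriptions over 8 arrays. In each gene named the SD was larger in KO, so the KO arrays weigh most in them.

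Around these 9 genes, none of the other SLC and ABC genes listed passed the test. The list of 58 further genes had probes for 46, of which 20 were tested, and 0 were called (limma). At an unadjusted p under 0.05 stood 8 of the 20, beside 17.4% of all genes. The median difference over the 20 was 0.03, with 11 above 0 and 9 below, and the groups did not overlap for 6 of them, 3 in each direction, beside 10.8% of all genes. Both counts include Slc22a4, which passed the detection filter through its WT arrays alone. They also include Abcc9, a potassium channel subunit that was listed with the ABC pumps.

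Among the 10 uptake and exchange carriers tested, the lowest p belonged to Slc22a4 (Octn1, an ergothioneine carrier). Its probe read 4.61, 4.71, 4.997 and 4.56 in WT and was not well above background on any KO array (4.35, 4.12, 4.41 and 4.20). The gene was tested only because all 4 WT arrays detected it, so a lower KO value is partly built into its selection. It was not called (limma, adjusted p = 0.101), and no fold is read from values this near background. Slc22a18 read 9.52, 9.79, 9.57 and 9.45 in WT and 9.80, 9.81, 9.92 and 9.97 in KO, with no overlap by a very narrow margin (0.29, limma, adjusted p = 0.204). Slc10a3 differed by 0.28 (adjusted p = 0.448). Slc10a1 (Ntcp), the sodium-dependent bile acid carrier of hepatocytes, differed by -0.20 (SE 0.146, 95% confidence interval -0.53 to 0.12; limma, adjusted p = 0.507) with overlapping groups. Of the carriers related to the 9 genes, Slco1a5, Slco1a6, Slc22a6 and Slc22a8 were among the 16 not detected on any array.

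Among the 10 other ABC family genes tested, 6 had an unadjusted p under 0.05, beside 17.4% of all genes, and 0 were called. Abcg5, which with Abcg8 forms the sterol pump of the canalicular membrane, read 10.33, 10.39, 10.32 and 10.20 in WT and 10.38, 11.31, 11.60 and 11.81 in KO. KO 1 lay among the WT values and the other 3 KO arrays lay clearly above them. The difference was 0.96 (SE 0.257; limma, adjusted p = 0.0802), and without KO 1 it was 1.26 (adjusted p = 0.000871). Leaving out any other single array gave no call, with limma adjusted p up to 0.231. Over all genes, leaving out KO 1 raised the calls from 207 to 511. Abcg8, named after its values were seen because it pairs with Abcg5, read 9.92, 10.15, 9.94 and 9.77 in WT and 9.68, 10.54, 10.85 and 11.13 in KO (0.60, SE 0.26, limma, adjusted p = 0.265) and was also called without KO 1. Abcb1b, related to Abcb1a and also named after its values were seen, differed by -0.39 (SE 0.147; limma, adjusted p = 0.205). All its KO values were below all WT values by a very narrow margin. Its probe was dim (4.48 to 5.41) and was detected on 4 WT and 3 KO arrays.

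Abcb4 (Mdr2), the canalicular phosphatidylcholine floppase, read 11.07, 10.96, 11.12 and 11.13 in WT and 10.56, 10.21, 10.32 and 10.95 in KO. All KO values were below all WT values, KO 4 only just. The difference was -0.56 (SE 0.155; limma, adjusted p = 0.094), and without KO 4 it was -0.70 (adjusted p = 0.0256). Leaving out any other single array gave no call, with limma adjusted p up to 0.254. Abcc5 differed by 0.37 (adjusted p = 0.0883) and Abcc9 by 0.39 (adjusted p = 0.169), both without overlap of the groups. The Abcc5 probe was dim (4.775 to 5.333), and another Abcc5 probe was not detected on any array. The other Abcc9 probes did not pass the detection filter.

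**Figure D4:**
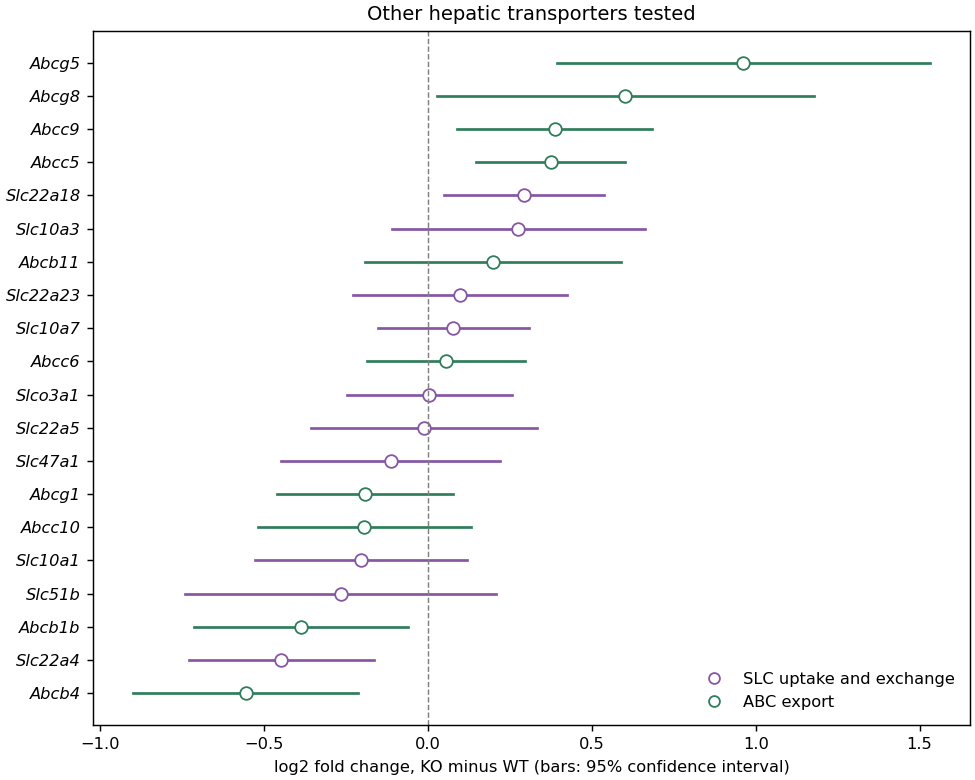
Log2 fold change, KO minus WT (horizontal axis, bars are 95% confidence intervals), of the 20 other SLC and ABC genes tested (vertical axis), coloured by family. All points are open because none had an adjusted p under 0.05, and the estimates run from -0.56 for Abcb4 to 0.96 for Abcg5.

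Genes known to regulate hepatic transporters, most of them transcription factors, were listed as well. Of 27 regulators 19 were tested and 0 were called (limma), with a median difference of -0.02 and 2 at an unadjusted p under 0.05, beside 17.4% of all genes. Rxrb, a shared partner of nuclear receptors, differed by -0.28 (adjusted p = 0.198) with all KO values below all WT values. It was the 1 regulator of the 19 without overlap of the groups, beside 10.8% of all genes. Nr1i2 (PXR), the xenobiotic receptor that induces Slco1a4 in mouse, read 7.87, 7.20, 7.12 and 7.49 in WT and 7.43, 7.94, 7.91 and 8.29 in KO. The difference was 0.47 (SE 0.207; limma, adjusted p = 0.268), with WT 1 and WT 4 inside the KO range and KO 1 inside the WT range. Nr1i3 (CAR), the other receptor named above for Slco1a4, went the other way, by -0.34 (SE 0.242; limma, adjusted p = 0.498) with overlapping groups. Their part in the Slco1a4 values was not tested. Nr5a2 differed by 0.30 (adjusted p = 0.334). Bcl6, a repressor tied to the male pattern of growth hormone response in mouse liver, read 6.84, 9.92, 9.69 and 9.51 in WT and 8.43, 6.64, 6.82 and 8.46 in KO. WT 1 stood among the lowest arrays and the difference of -1.40 (SE 0.668) did not pass (limma, adjusted p = 0.312). Without WT 1 it was -2.11 (adjusted p = 0.045). Leaving out any other single array gave no call, with limma adjusted p up to 0.561.

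Markers of the cell types of the liver were summed on the linear scale, and no marker of any list was called. The brightest probes weigh most in such a sum, as Dcn among the stellate cell markers and Hba-a1 among the blood cell markers. The 9 hepatocyte markers tested summed to 83100 to 89700 in WT and 86300 to 90000 in KO. All 8 Kupffer cell and macrophage markers tested had estimates below 0, with sums of 1890 to 3170 in WT and 1760 to 2360 in KO. All 7 stellate cell and fibroblast markers tested had estimates above 0, with sums of 2710 to 2970 and 2820 to 4160. All 4 blood cell markers tested had estimates below 0, with sums of 5560 to 11800 and 4080 to 12200. Of the cholangiocyte markers Krt19, Krt7, Cftr and Tspan8 were below the detection limit set for testing, as were all 5 kidney and intestine markers with a probe. The part of these shifts in the transporter values was not tested.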

How the data were processed

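The authors hybridised liver RNA to Illumina bead arrays. They deposited non-normalized probe intensities with a detection p-value per probe and array, and a table of normalized intensities that ranks the probes of each array as the raw table does. The tool behind that normalization was not named in the sources used here. The study's methods compared normalized intensities of the 2 groups, with no covariate. Of the 25697 probes, 23978 carry 1 gene symbol in the platform annotation, 0 carry several and 1719 carry none. Starting from the deposited raw intensities, background was corrected with normexp using the detection p-values (offset 16), followed by quantile normalization and log2, in R 4.3.3 with limma 3.58.1. Kept were 10945 probes detected (detection p under 0.05) on at least 4 of 8 arrays, and each of 8134 genes was represented by its brightest kept probe. KO was compared with WT by lmFit and eBayes over all genes, and single genes also by an exact two-sided permutation test. The code was tested on simulated arrays. The number of arrays limits the precision.

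Named genes were the 9 transporters, Snd1, the 4 genes with the lowest p of each list of other transporters, regulators and scaffolds, and the 3 genes most correlated with each called transporter. Abcg8, Abcb1b and Nr1i3 were named in addition, after their values were seen. The transporters and all lists were chosen with earlier results of these data known. The labels do not say how the replicate numbers were assigned. The deviations of same-numbered arrays correlated at -0.0876 to 0.117, and so few pairs of arrays cannot settle whether the samples were paired. Every column belonged to a labelled sample.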

Additional observations from a re-analysis of the deposited data

Results flagged for a closer look

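In 4 of 56 groups of 4 arrays examined, 1 array stood apart, its gap to the nearest of the others taking up most of the group's range (0.832 to 0.938 of it). Chance alone gives about 1 in 20, so a few such groups among 56 are no surprise. Slc22a7 accounted for a pair of them. In WT 1 it read 6.95, while the other WT arrays lay at 7.32 to 7.39, and in KO 1 it read 6.72, while the other KO arrays lay at 5.53 to 5.61. Without both arrays the Slc22a7 difference was -1.79 (limma, adjusted p = 0.000113), an alternative chosen after seeing the data. Cyp2d40 read 9.39 in KO 1 against 8.18 to 8.33 in the other KO arrays. It was examined because it ran most like Slc22a7 over these same arrays, so its flag is not separate from that of Slc22a7 in KO 1. Bcl6 read 6.84 in WT 1 against 9.51 to 9.92 in the other WT arrays.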

How the results depend on the processing

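Each of the 7 transporter genes was refitted under 20 alternatives. Of the 140 values, 128 kept their direction and their side of the threshold, 7 lost a call (all Slc22a7), 4 gained one and 1 turned sign (Slco2b1, -0.0825 with median scaling). The count of transporters called, 1 as reported, was 0 with no detection filter (Slc22a7 adjusted p = 0.0713, with 16593 genes tested), 0 with a replicate block (Slc22a7 adjusted p = 0.0624) and 4 with array weights (Slc22a7, Slco1a4, Slco1b2 and Slco2a1, with Slc22a7 at -1.71, adjusted p = 2.44e-05). Leaving out 1 array it was 0 to 2. Array weights ran from 0.256 for KO 1 to 4.8 for KO 3. The replicate block, whose numbers the labels do not explain, lowered the calls over all genes from 207 to 92, and in 0 of 4 cases was an array's best match its own number. Of the 58 other SLC and ABC genes 0 were called as reported. The count was 1 with median scaling (Abcb4), 9 with array weights and 3 without KO 1 and KO 4 (Abcb4, Abcg5 and Abcg8). It was 2 without WT 1 and KO 1 (chosen after seeing the data) and 0 to 2 leaving out 1 array. Over all genes the 207 calls became 97 with median scaling, 96 with no detection filter, 2190 with array weights, 528 without WT 1 and KO 1, and 38 to 511 leaving out 1 array (without WT 3 and without KO 1). Of the calls 46.4% were higher in KO, and 14.4% with median scaling. Msn turned to -0.0343 without KO 1 and KO 4. The causes were not tested. Without WT 1 and KO 1, Nr1i2 was called (0.78, adjusted p = 0.0224). A probe near background, as for Slco1a1, Abcb1a and the lower Slco1a4 values, limits what these arrays can show.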

Other observations

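Proteins that hold transporters at the membrane were listed apart from the genes above. Of 15 such scaffold and partner genes 11 were tested and 0 were called (limma), with a median difference of 0.12. At an unadjusted p under 0.05 stood 0 of them, beside 17.4% of all genes. Slc9a3r2 and Slc9a3r1, which encode the PDZ proteins Nherf2 and Nherf1, differed by 0.28 (adjusted p = 0.305) and 0.23 (adjusted p = 0.405). Slc9a3r1 read 9.95, 10.08, 9.95 and 10.20 in WT and 10.60, 10.27, 10.07 and 10.16 in KO, with KO 1 the highest. Bsg (basigin), a chaperone of monocarboxylate transporters, differed by -0.18 (adjusted p = 0.422), and Msn (moesin), which links membrane proteins to actin, by 0.23 (adjusted p = 0.475), with a change of sign without KO 1 and KO 4.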
